A study of Bos taurus with 4 samples.

Results

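MFAP5, ADAMTS15, RSPO3 and GALNT15 are genes of secreted or Golgi proteins, and 3 of the 4 products act in the extracellular matrix or at the cell surface. They were selected on a measured difference between diets: the study listed the 10 genes with the smallest false discovery rate between grass-fed and grain-fed steers, and these were the 4 of them that were higher in grain-fed steers. Their rows were found by identifier, ENSBTAG00000000310 for MFAP5, ENSBTAG00000016857 for ADAMTS15, ENSBTAG00000008121 for RSPO3 and ENSBTAG00000008240 for GALNT15, so that 4 of 24616 genes in the table are described. Because the difference between the diets chose them, their levels in the 2 diets are given as a description and were not tested.

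The tissue was a piece of ruminal wall from 4 Aberdeen Angus steers of one closed herd, with 1 RNA-Seq library per animal. Steers Grass_104 and Grass_222 ate grazed alfalfa, or bailage in winter, and no grain after weaning, whereas steers Grain_184 and Grain_224 were kept on a conventional ration of corn (silage and shelled), soy bean and minerals, and before weaning all animals shared one diet. Animals were taken at a like weight and not at a like age (about 14 months on grain, some 200 days later on grass), so that diet and age cannot be told apart. A piece of whole wall holds epithelium, connective tissue, muscle and vessels, and in such bulk RNA fewer cells of one type and less RNA per cell cannot be told apart.

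The MFAP5 product, also called MAGP2, is a glycoprotein of the microfibrils that carry elastic fibres, and it binds fibrillin. ADAMTS15 is a secreted zinc metalloprotease that cuts proteoglycans such as versican. RSPO3 is an R-spondin, a secreted ligand that binds LGR receptors and the ubiquitin ligases RNF43 and ZNRF3, and by keeping Frizzled receptors on the cell surface it strengthens the response to Wnt proteins. GALNT15, formerly GALNTL2, belongs to the Golgi enzymes that add the first sugar, N-acetylgalactosamine, in mucin-type O-glycosylation. In many tissues MFAP5 and RSPO3 are known as products of fibroblasts and other stromal cells.

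The reads on genes numbered from 5242466 to 9030027 per library, and both grass-fed libraries were shallower than both grain-fed ones. These numbers are below the aligned reads that the study reported for any library. Read counts here and below were recovered from the adjusted values that the authors deposited, as described under the processing. One library stood apart: across 17307 genes with a read, log2 pseudo-counts of Grass_222 correlated with those of the other libraries at 0.748 to 0.792, and the other 3 libraries with each other at 0.897 to 0.931 (Pearson, across genes, which are not independent replicates). Of the squamous epithelial markers, the one with an identifier here was DSG1 (a desmosomal cadherin), and the others could not be matched. Its identifier came from the study's list of leading genes, so the difference between the diets chose it as well. DSG1 had 15 reads in Grass_104, 238 in Grass_222 and 0 in both grain-fed libraries. What part the distance of Grass_222 from the other libraries had in the values of the 4 genes was not tested.

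MFAP5 had 126 reads in Grain_184 and 107 in Grain_224, and 0 in Grass_104 and 0 in Grass_222. On the deposited scale these were pseudo-counts of 102 and 85.8 in the grain-fed steers, where a pseudo-count is a read count adjusted by the authors to one common library size. The groups did not overlap, and in 3890 of 17307 genes (22.5%) both grain-fed libraries likewise lay above both grass-fed ones. The grain-fed mean was 94.0 ± 11.6 pseudo-counts (SD, n = 2). Taking 3 reads over both grass-fed libraries as the floor of what could be seen, MFAP5 was at least 51.1-fold higher in the grain-fed wall. This bound, like those of the other genes below, sets the pooled grain-fed reads against the floor. It leaves out counting error of the grain-fed reads and does not hold for each pair of animals. The bound fell to 29.3-fold without Grass_104 and to 21.7-fold without Grass_222, because fewer reads then set the floor.

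ADAMTS15 showed 216 reads in the grain-fed wall, of which 112 came from Grain_184 and the others from Grain_224, and none in Grass_104 or Grass_222. Its pseudo-counts in the grain-fed steers, 90.8 and 83.4, lay closer together than those of MFAP5, with a mean of 87.1 ± 5.28 (SD, n = 2). The protease gene was thus read at close levels in both grain-fed animals and not found in either grass-fed animal. The lower bound of the grain-fed level was 47.4 times the grass-fed floor, and 27.2 and 20.1 times without Grass_104 and without Grass_222.

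For RSPO3, 100 reads were counted in Grain_184 and 107 in Grain_224, against 0 in each grass-fed library. This Wnt-enhancing ligand was the one of the 4 genes that was lower in Grain_184 than in Grain_224, at pseudo-counts of 81.1 and 85.8, a mean of 83.4 ± 3.32 (SD, n = 2). The grain-fed level was at least 45.4-fold above the floor. Without Grass_104 the bound was 26.1-fold, and without Grass_222 it was 19.3-fold.

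GALNT15 gave 216 reads in Grain_184 and 150 in Grain_224, with 0 in Grass_104 and 0 in Grass_222. Its pseudo-counts of 175 and 120 in the grain-fed steers had a mean of 148 ± 38.9 (SD, n = 2), the widest spread of the 4 genes. This glycosyltransferase gene had the highest bound, at least 80.2-fold, which became 46.1-fold without Grass_104 and 34.1-fold without Grass_222. Read counts of different genes also depend on transcript length, which the sources used here do not give, so an order of the 4 genes by reads or pseudo-counts is not an order of their transcript levels. The study's list of leading genes prints levels above 0 under both diet headings for each of the 4 genes. For each gene that printed pair stands in the same ratio as the pseudo-counts of Grain_184 and Grain_224 given here. The printed pair is therefore not read here as a grass-fed and a grain-fed level.

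**Figure D1:**
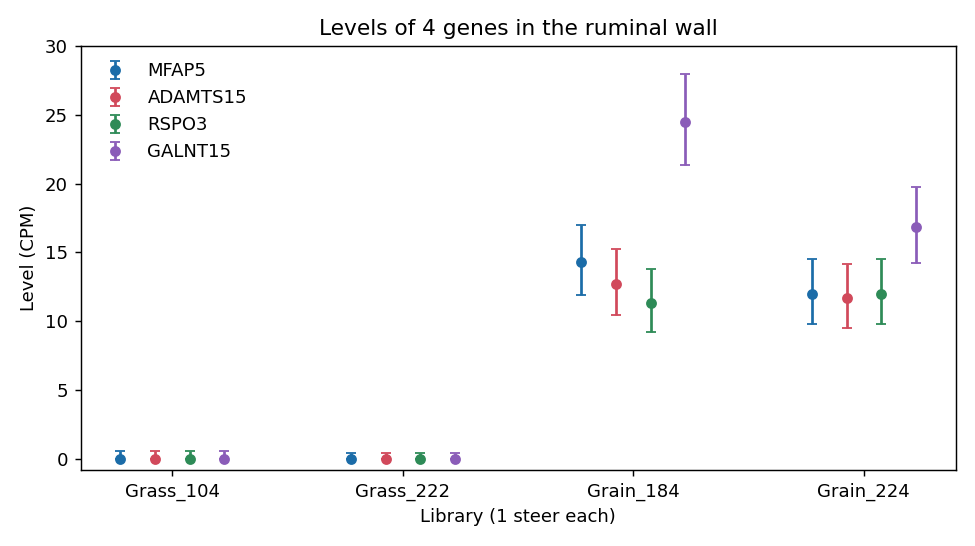
Level of each gene in CPM (vertical axis) in the 4 libraries, 1 per steer (horizontal axis). Bars at the grain-fed points are 95% Poisson intervals, and bars at the grass-fed points run from 0 to the floor of 3 reads (both cover counting error only). All 8 grass-fed points lie at 0, and all 8 grain-fed points lie between 11.3 and 24.5 CPM.

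The depth of the grass-fed libraries sets how low a level could have been seen. Expressed in CPM, which scales reads to library size, the floor of 3 reads is 0.605 CPM in Grass_104 and 0.448 CPM in Grass_222, while the grain-fed levels ran from 11.3 CPM (RSPO3, Grain_184) to 24.5 CPM (GALNT15, Grain_184). At its mean grain-fed level, MFAP5 would have given 65.2 reads in Grass_104 and 88.1 in Grass_222. The corresponding numbers were 60.4 and 81.6 for ADAMTS15, 57.9 and 78.2 for RSPO3, and 103 and 138 for GALNT15. Summed over the 4 genes, 286 reads in Grass_104 and 386 in Grass_222 would have matched the grain-fed level, and 0 were counted in each. Below the floor, expression in the grass-fed wall was not detectable at this depth.

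In the grain-fed wall the 4 genes were neither rare nor abundant, standing near the middle of the expressed genes by read count, which is not adjusted for length. Among 14842 genes with a read in Grain_184, GALNT15 ranked 5450.5 (tied), MFAP5 7225, ADAMTS15 7617 and RSPO3 7995. Among 15371 genes in Grain_224, GALNT15 ranked 6652, MFAP5 and RSPO3 shared rank 7794 with 107 reads each, and ADAMTS15 ranked 7887. The microfibril gene MFAP5 stood at 48.7% of the list from the top in Grain_184 and 50.7% in Grain_224, and the transferase gene GALNT15 at 36.7% and 43.3%. Counted among genes with at least 1 CPM alone, MFAP5 stood at 56.6% in Grain_184, and GALNT15 at 42.7% in Grain_184 and 51.2% in Grain_224. Set against the median expressed gene, which had 119 reads in Grain_184 and 110 in Grain_224, RSPO3 reached 0.840 and 0.973 times that median and GALNT15 1.82 and 1.36 times. In the grass-fed libraries they had no rank, being among 10910 genes with no read in Grass_104 and 9372 in Grass_222.

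**Figure D2:**
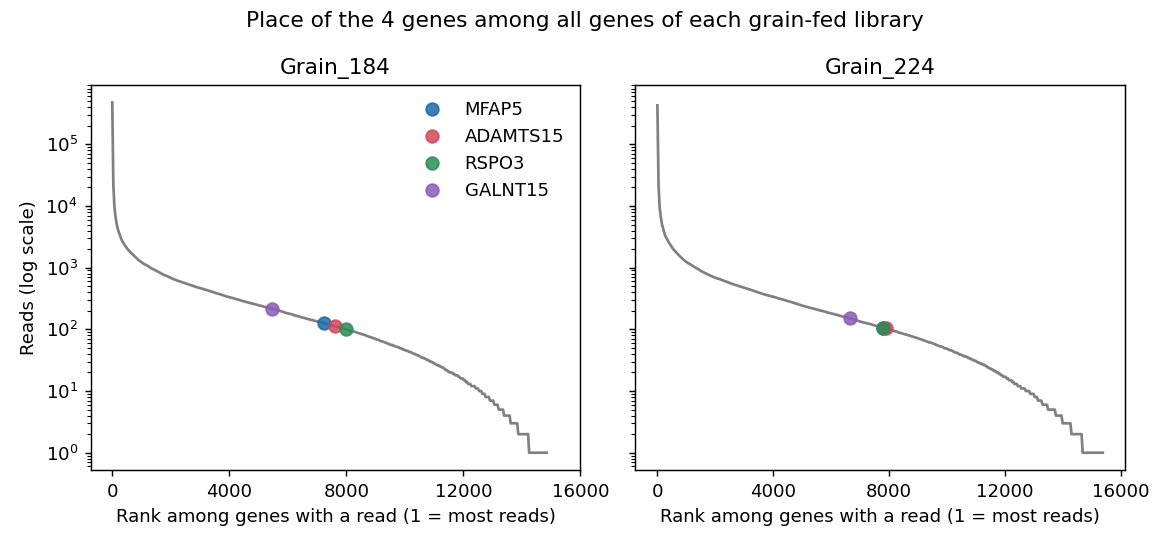
Read count (vertical axis, log scale) against rank by read count (horizontal axis, 1 for the most reads) for genes with a read in each grain-fed library. The grey line is all such genes and the coloured points are the 4 genes, which lie between ranks 5450.5 and 7995 on the gently falling middle of both curves.

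The position of the 4 genes among all genes without grass-fed reads was then described. Of 17307 genes with a read in any library, 1268 (7.33%) lacked reads in both grass-fed libraries, and 1118 (6.46%) lacked reads in both grain-fed libraries. Most of the first kind were barely expressed: 902 of the 1268 had reads in 1 grain-fed library alone, 622 had at most 3 reads in all, and the median was 4 reads over both grain-fed libraries. MFAP5, ADAMTS15, RSPO3 and GALNT15 had between 207 and 366 reads over both. Ordered by the lower of the 2 grain-fed pseudo-counts, they took the first 4 places, GALNT15 at 120, MFAP5 at 85.8, ADAMTS15 at 83.4 and RSPO3 at 81.1.

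Just outside them stood ENSBTAG00000032944, a gene with no name in the sources used here, with 129 reads in Grain_184, 74 in Grain_224 and a lower pseudo-count of 59.3. The next gene on this measure stood at 37.6. At or above the pseudo-count of RSPO3 in Grain_184, the lowest of the 8 grain-fed values, 7353 genes were found in both grain-fed libraries, and 4 of them, which are 0.0231% of all 17307 genes, lacked reads in both grass-fed libraries. These 4 are the genes described here, and the same number came when up to 3 reads per grass-fed library were allowed. Among the other genes at this grain-fed level, the fewest grass-fed reads in all were 5. Since the rule chose the genes by this same contrast, these places describe them and support nothing further.

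**Figure D3:**
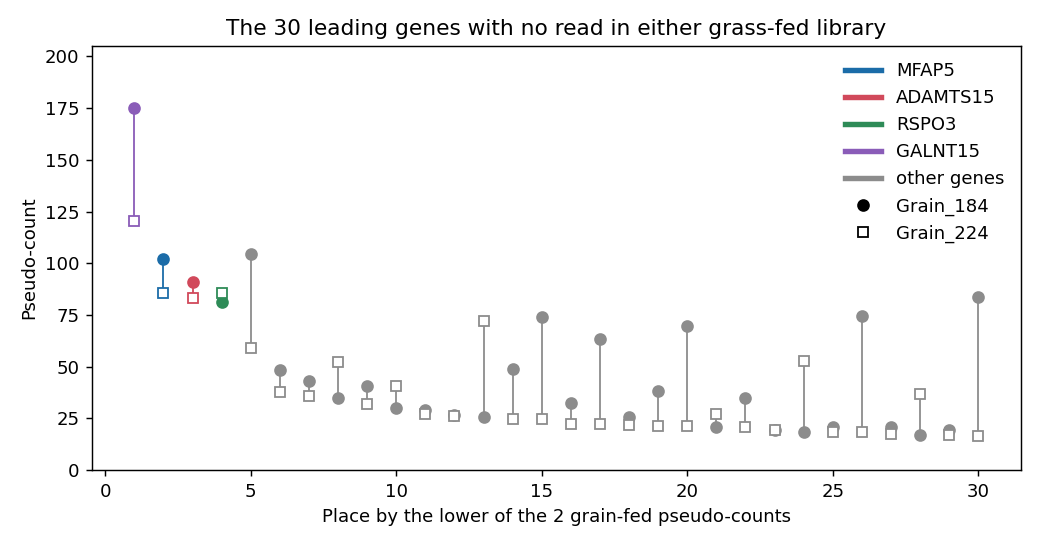
Pseudo-counts (vertical axis) of the 30 leading genes with no read in Grass_104 or Grass_222, ordered by the lower of the 2 grain-fed values (horizontal axis). Filled circles are Grain_184, open squares are Grain_224 and a line joins each gene's 2 values. The 4 coloured genes hold the first 4 places, with lower values of 81.1 to 120, and the next gene lies at 59.3.

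Genes that matched the 4 in the grain-fed wall were as a rule well read in the grass-fed wall. In a window from 40.5 to 350 pseudo-counts in both grain-fed libraries (0.5 times the lowest to 2 times the highest value of the 4 genes) there were 5625 genes. In Grass_104 their median was 95 reads, with quartiles of 54 and 150, and in Grass_222 it was 114 reads, with quartiles of 54 and 214. No read was found for 17 of them (0.302%) in Grass_104 and for 143 (2.54%) in Grass_222. Both grass-fed libraries were empty for 5 genes, namely the 4 genes described, which the rule placed there, and 1 of the other 5621 (ENSBTAG00000032944). Zeros were thus rarer in Grass_104, the shallower library, than in Grass_222. Both counts of zeros include the 4 genes, and what gave rise to the zeros was not tested.

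**Figure D4:**
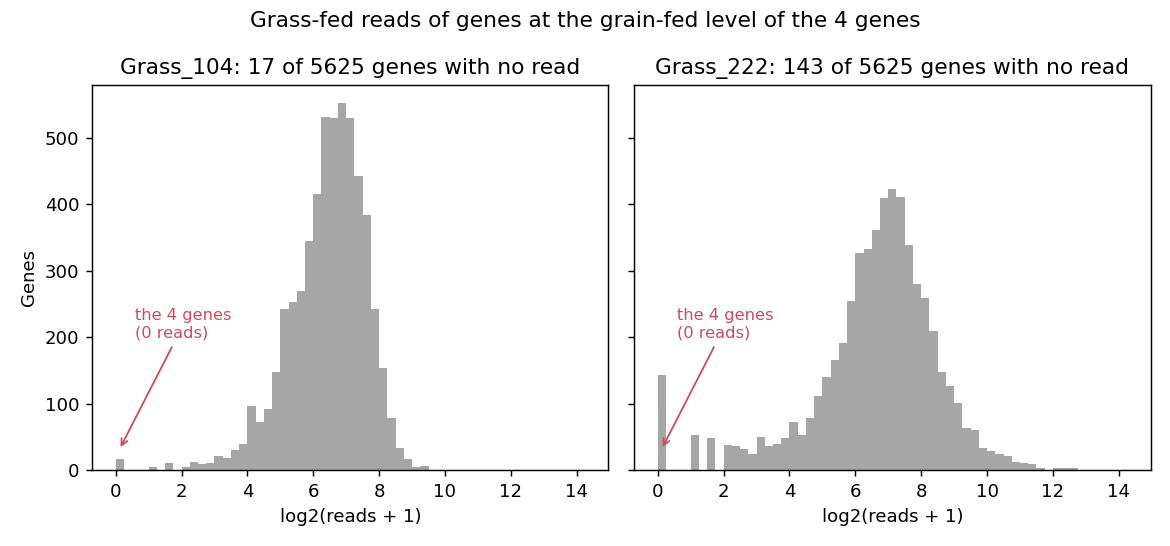
Number of genes (vertical axis) by log2(reads + 1) (horizontal axis) in Grass_104 and Grass_222, for the 5625 genes whose pseudo-counts in both grain-fed libraries lay between 40.5 and 350. The arrow marks the bar at 0 reads, which holds 17 genes in Grass_104 and 143 in Grass_222, the 4 genes among them in both.

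A simpler criterion, that both grain-fed libraries lie above both grass-fed libraries, was met by all 4 genes and by 3890 of 17307 genes (22.5%). Fitted over the whole table on log2(pseudo-count + 1), limma called 0 of 17307 genes (0%) between the diets at an adjusted p of 0.1, while 1319 were under 0.05 before adjustment. The smallest adjusted p from limma was 0.637. Without Grass_104 the same fit called 3882 genes, and without any 1 of the other 3 libraries it called 0. The study did call genes at a false discovery rate under 0.1, the 4 genes among them, with edgeR, which models counts. A fit on log values is an unlike test, so its count is not a check of the study's list. A count of 0 does not show that levels were equal. For one gene in 2 against 2 animals, the smallest p that an exact two-sided permutation test allows is 0.333.

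The difference between the 2 grain-fed steers was compared with counting error. It did not choose the genes directly, but the study's false discovery rate also depended on the spread between animals of one diet. Genes with close grain-fed values may thus have been favoured. GALNT15 was 1.46 times as high in Grain_184 as in Grain_224 (95% interval 1.18 to 1.81, Clopper-Pearson, from the reads and library sizes), so that the 2 animals differed beyond counting error for the transferase gene. The ratio was 1.19 for MFAP5 (0.913 to 1.56), 1.09 for ADAMTS15 (0.827 to 1.44) and 0.945 for RSPO3 (0.713 to 1.25), and these 3 intervals hold 1. Such an interval compares 2 libraries and not conditions, and an interval that holds 1 does not show equal levels. Of 16189 genes with a grain-fed read, 8264 (51.0%) had an interval that left out 1, as had 2918 of the 5625 genes in the window above (51.9%), a background beside which 1 of 4 is no result about these genes.

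The 3 genes other than GALNT15 were read at close levels in both grain-fed animals. The log2 ratio between the animals had a size of 0.08 for RSPO3, 0.12 for ADAMTS15, 0.25 for MFAP5 and 0.54 for GALNT15, against a median of 0.34 over the 5625 genes in the window. Of the other genes in the window, 13.5% differed less than RSPO3, 20.0% less than ADAMTS15, 39.0% less than MFAP5 and 70.9% less than GALNT15. The window itself bounds the difference between the grain-fed animals, for the 4 genes and the others alike. The choice of the 4 genes may also have favoured close values.

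**Figure D5:**
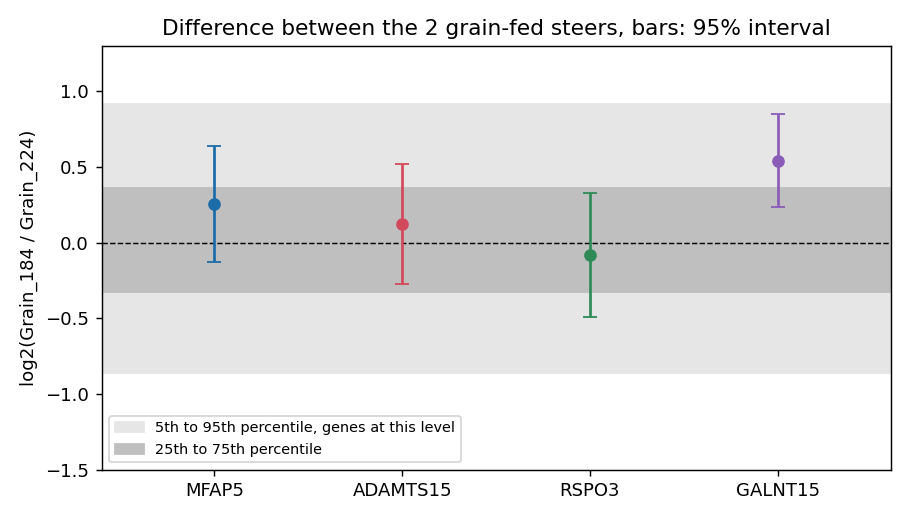
Ratio of Grain_184 to Grain_224 on a log2 scale (vertical axis) for each gene (horizontal axis), with 95% Clopper-Pearson intervals of counting error as bars. The dark and light bands span the 25th to 75th and the 5th to 95th percentiles of 5625 genes of like grain-fed level. The interval of GALNT15 lies above 0, and those of MFAP5, ADAMTS15 and RSPO3 cross it.

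Taken as a sum, the 4 genes had 554 reads in Grain_184 and 468 in Grain_224, a ratio of 1.20 (95% interval 1.06 to 1.36). Without GALNT15 the sums were 338 and 318 reads and the ratio was 1.08 (0.920 to 1.26). The transferase gene made up 39.0% of the summed reads in Grain_184 (34.9% to 43.2%) and 32.1% in Grain_224 (27.8% to 36.5%), and these intervals overlap. RSPO3 made up 18.1% in Grain_184 (14.9% to 21.5%) and 22.9% in Grain_224 (19.1% to 26.9%), which overlap as well. MFAP5 held 22.7% and 22.9% of the sum.

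The genes nearest to the 4 in profile were sought by the Euclidean distance, over the 4 libraries, between log2(pseudo-count + 1) of a gene and the mean of the 4. MFAP5 lay at 0.13 from that mean, ADAMTS15 at 0.28, RSPO3 at 0.41 and GALNT15 at 0.80. The nearest gene outside them was ENSBTAG00000032944 at 0.64, nearer than GALNT15. The next was ENSBTAG00000020939 at 1.66, with 106 reads in Grain_184, 48 in Grain_224, 1 in Grass_222 and 0 in Grass_104. With 2 libraries per diet, such likeness rests on 4 values per gene and is a description.

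Genes of the mirror pattern on the same list of 10 varied more between animals. F2RL1, a protease-activated receptor gene with 0 reads in both grain-fed libraries, had 41 reads in Grass_104 and 144 in Grass_222, a level 2.60 times as high in Grass_222. For DSG1, whose reads are given above, this fold was 11.7. Between the grain-fed steers the 4 genes differed by 1.46-fold at most. Whether the spread differs between the 2 kinds of gene was not tested.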

How the data were processed

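Ruminal wall RNA of 2 grass-fed and 2 grain-fed steers was sequenced, 1 library per animal. Reads of 50 bases, less their first 15, were aligned by the authors to UMD3.1 with Bowtie, and summarizeOverlaps gave counts for Ensembl genes. Not given in the sources used here are the annotation release, the counting mode, whether strand was used and the version of Bowtie. The authors' deposited values are a signal on the scale of reads, the pseudo-counts of edgeR, in which each count is moved to the size of a common library. A second deposited table holds the authors' own fold changes and p-values and was not used.

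The adjustment was inverted in Python 3.11.15 (scipy 1.17.1) by fitting 4 relative library sizes and 1 dispersion (0.512) to the spacing of low values. With the relative sizes rounded to 6 decimals, the recovered whole reads returned all 4 deposited values to within 0.01 for 99.8% of 24616 genes. The other 43 genes, each with a pseudo-count of at least 28508 in some library, differed by at most 0.127. The method was tested on simulated data. CPM values use the library sizes behind the deposited values. Floors (3 reads) and intervals take in counting error alone. For the comparison of diets, limma 3.58.1 (R 4.3.3) was run on log2(pseudo-count + 1), with no covariate, a variance trend and Benjamini-Hochberg adjustment, over 17307 genes with a read in any library. Tested on simulated data, this fit found known differences where animals varied little and missed them where animals varied widely. As they applied, the values were recomputed with pseudocounts of 0.5 and 2, with genes below 1 CPM in 3 or more libraries removed, with other scalings, without a variance trend and without each library in turn. SDs measure the spread between 2 animals of one diet. P-values from limma set the difference between the diets against the spread between animals, which limma estimates with the help of all genes. Where 1 library was left out, its diet had 1 animal and gave no spread.

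The genes and lists were chosen with earlier results of these data known. The genes named are the 4 genes, F2RL1 and DSG1 from the same list of 10, the 2 nearest in profile, and the leading unnamed gene without grass-fed reads. The files pair no identifiers with symbols, and no Ensembl identifier is held by the ARS-UCD2.0 list used here (0 of 37063 genes). Therefore 4 lists of related genes (microfibril and elastic fibre, ADAMTS proteoglycanases and substrates, R-spondin and Wnt, mucin-type O-glycosylation) and 9 lists of cell type markers, 97 genes in all with 1 matched (DSG1), were not analysed here. Coordinates, transcript lengths and sequences of the 4 genes were not used here.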

Additional observations from a re-analysis of the deposited data

How the results depend on the processing

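The ratios between the grain-fed steers and the limma count of 0 kept their direction and their side of the threshold under every change of scaling, pseudocount, filter and trend that was run. Removing genes below 1 CPM cannot change a rank counted from the top, and it moved the places of the 4 genes to between 42.7% and 62.7% of the list. Ranks by reads per kilobase were not run, since no length could be matched. With a floor of 1 read in place of 3, the bounds were 153-fold for MFAP5, 142-fold for ADAMTS15, 136-fold for RSPO3 and 241-fold for GALNT15, by construction. Without single libraries the bounds ranged from 21.7 to 55.6-fold for MFAP5, 20.1 to 49.4-fold for ADAMTS15, 19.3 to 46.6-fold for RSPO3 and 34.1 to 95.2-fold for GALNT15. The 4 genes with no grass-fed read at or above the lowest grain-fed value became 7 to 133, with 133 without Grass_104, 7 without Grass_222, 7 without Grain_184 and 10 without Grain_224. The share of genes at this grain-fed level with no grass-fed read, 0.0889% with the 4 genes themselves counted, was 0.262% in a window from the lowest to the highest of the 4 genes and 0.248% in a wider one that ended at 4 times the highest, and ranged from 0.302% (without Grass_222) to 2.54% (without Grass_104). The limma count ranged from 0 to 3882, with the upper end without Grass_104. A fit that leaves 1 grass-fed library, whether Grass_104 or Grass_222, takes its spread from the grain-fed pair. No paired analysis was possible because the animals of the 2 diets share no number. In the shallowest library, with 5242466 reads on genes, levels below 0.605 CPM could not be told from 0.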
